A study of Mus musculus with 6 samples.

Results

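Motile cilium axoneme genes were examined in RNA-seq counts from mouse brain tumours. The members were found by name among the 34591 gene rows of the count tables: the axonemal dynein heavy chains (Dnahc), dynein intermediate chains (Dnaic), radial spoke proteins (Rsph), tektins (Tekt), Spag6, Spag16 and Spag17, and 10 named genes, of which Mcidas was not matched to a row. This gave 40 members. The study holds 3 libraries labelled sh2-Ift88, named shIft88 below, after a hairpin RNA against Ift88, and 3 labelled control. Both come from mice with WNT medulloblastoma, a hindbrain tumour with active WNT signalling. The groups were read from the sample descriptions, since the treatment field names the knockdown for all 6 libraries. Strain, age, driver alleles and the route of the hairpin are not stated, nor is it stated whether each library is its own animal, so p-values measure the spread between these libraries, which may be technical.

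A motile cilium is a beating hair on the surface of ependymal cells, airway cells and, as a longer form, sperm. Its core, the axoneme, is built of microtubule doublets that carry outer and inner rows of dynein motors, with radial spokes pointing to a central pair of microtubules. Many other cells, neural progenitors among them, carry a single immotile primary cilium, which is built by the same intraflagellar transport system and serves signalling. FOXJ1 and the RFX factors are the transcription factors that switch on the motile programme in ependymal cells, which line the brain's ventricles. The choroid plexus epithelium, which makes cerebrospinal fluid, also bears tufts of cilia.

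Total gene counts ran from 26802618 to 33772559 per library. Ift88 itself, a subunit of the transport complex that builds both kinds of cilium, had 519, 477 and 231 counts in libraries labelled shIft88 1, 2 and 3, against 455, 607 and 553 in control 1, 2 and 3. Levels are given in CPM, the usual unit of counts scaled to a common library size, here with TMM factors. Ift88 was at 14.7, 16.03 and 14.4 CPM in libraries labelled shIft88, against 13.8, 19.7 and 13.7 CPM in controls (log2 fold change -0.064, standard error 0.27, adjusted p = 0.9995, edgeR's quasi-likelihood test). The interval of the log2 fold change ran from -0.71 to 0.58, and the level of the targeted transcript did not set the labelled groups apart, so it gives no check of the labels. In the library labelled shIft88 3 the 3 highest rows took 37.5% of gene counts, against 7.91% to 12.1% in the other libraries. Its TMM factor was 0.598, so its CPM values below are higher than library totals alone would give. The WNT target Wif1, a tumour marker, was high in every library, at 3054, 1728 and 2522 CPM in libraries labelled shIft88 1, 2 and 3 and 2211, 1737 and 1346 CPM in control 1, 2 and 3. Olfactory receptor rows (Olfr), which should be silent in brain, had at least 1 count in 31, 564 and 387 of 1249 rows in libraries labelled shIft88 1, 2 and 3 and in 24, 492 and 38 rows in control 1, 2 and 3. Reads of silent genes were thus frequent in 3 libraries, the ones labelled shIft88 2 and 3 and control 2.

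Most genes of the motile programme were low in these tumours. By library totals, the members summed to between 87.7 and 198 CPM per library. Only 6 members averaged over 5 CPM over the 6 libraries: Dnahc7b, Rfx3, Rsph3a, Dnahc8, Rsph3b and Tppp3, which together held 69.9% to 88.6% of the member counts in each library. A further 11 averaged 1 to 5 CPM and 23 less than 1 CPM. Foxj1, the marker of the programme, had 102, 36 and 19 counts in libraries labelled shIft88 1, 2 and 3 and 20, 63 and 61 counts in control 1, 2 and 3. In the library labelled shIft88 1 no member was at 0, nor in the library labelled shIft88 2 or in control 2, while 2 were at 0 in the library labelled shIft88 3, 10 in control 1 and 4 in control 3. With 3 counts as the limit that a count of 0 allows, a gene at 0 in control 1 could still lie at up to 0.0909 CPM, and this limit covers counting error only.

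**Figure D1:**
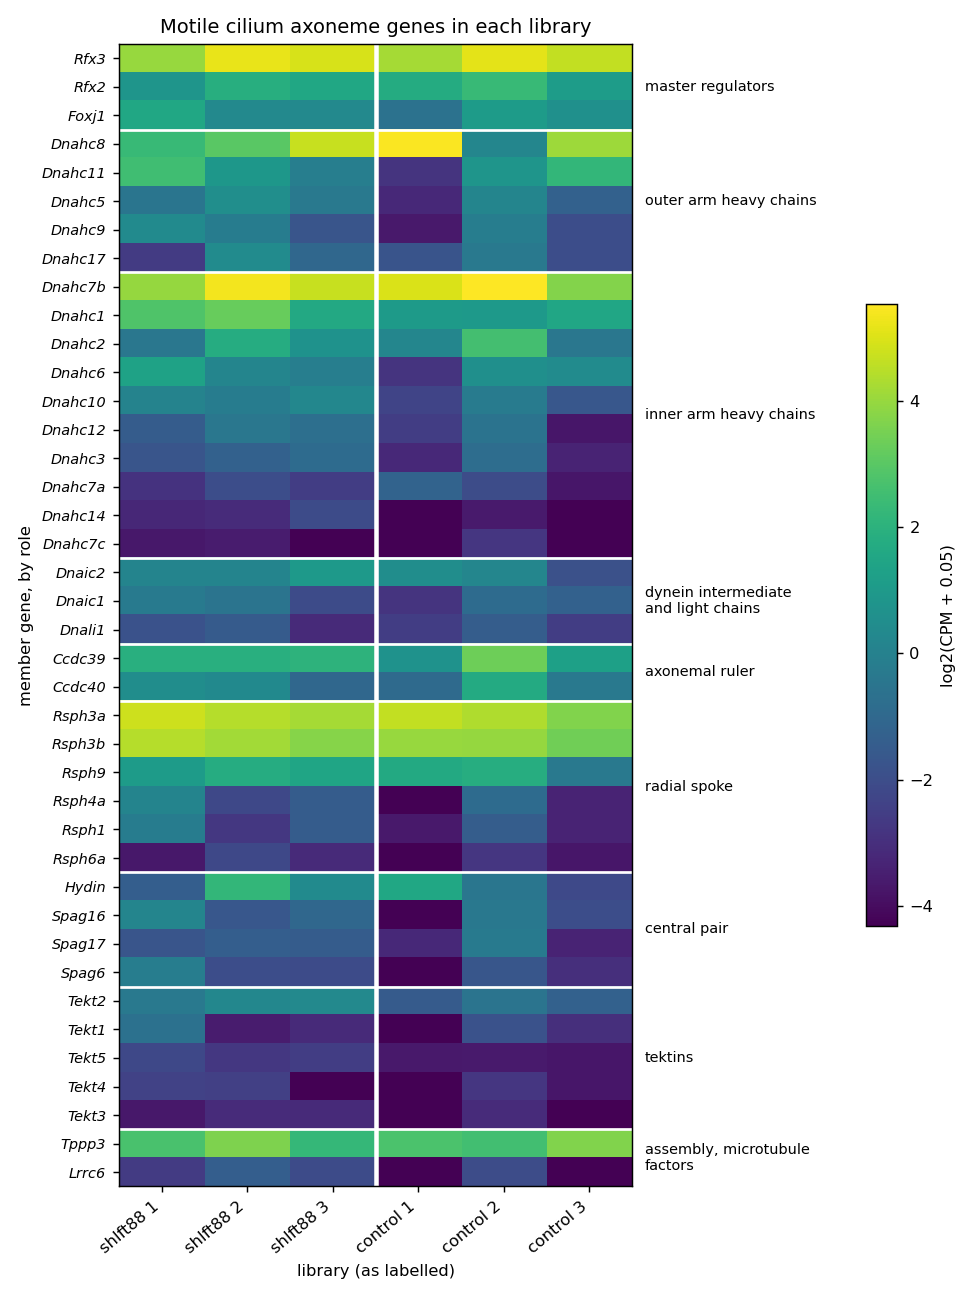
Level of each of the 40 members (rows, grouped by role) in each library (columns) as log2(CPM + 0.05), libraries labelled shIft88 on the left of the white line and controls on the right. Rfx3, Dnahc7b, Rsph3a and Rsph3b are bright in all 6 libraries, whereas most tektin and central pair genes are dark in control 1, where 10 members were at 0.

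By the median, abundant members included, motile cilium genes lay far below the genes of the primary cilium per length. A few abundant members, such as Rsph3a, were exceptions. Levels per length are CPM per kilobase of all annotated exons, from a later annotation (GENCODE vM21, GRCm38), which gave a length for 38 of the 40 members and for all 68 primary cilium genes found, of 70 listed, and are therefore approximate. The median member was at 0.208, 0.134 and 0.0696 CPM per kb in libraries labelled shIft88 1, 2 and 3 and at 0.0265, 0.126 and 0.0460 CPM per kb in control 1, 2 and 3. The median primary cilium gene was at 2.40, 3.63 and 3.28 CPM per kb in libraries labelled shIft88 1, 2 and 3 and at 3.18, 3.42 and 2.88 CPM per kb in control 1, 2 and 3. The list of primary cilium genes, which holds transport, BBSome and transition zone genes, was chosen with earlier results of these data known. All 68 of its genes passed the edgeR filter on low counts, whereas 22 of the 40 members did.

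**Figure D2:**
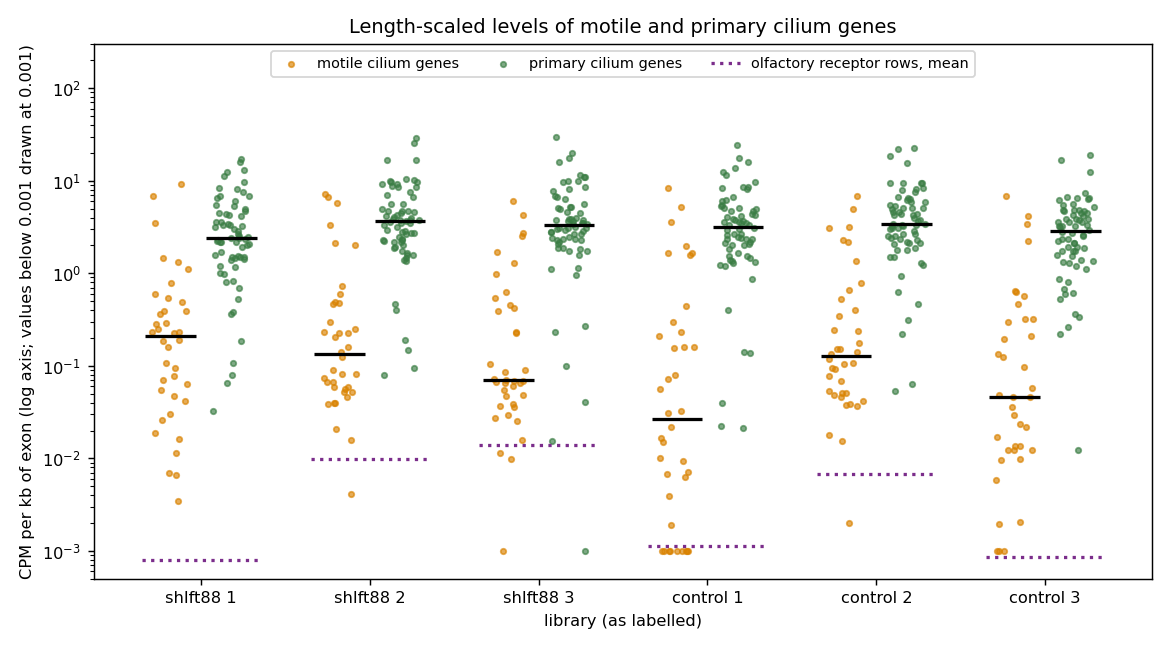
Length-scaled level (CPM per kb of exon, log axis) of 38 motile cilium members and 68 primary cilium genes in each library, with black bars at the medians and a dotted line at the mean of the olfactory receptor rows. The members' median is lowest in control 1 (0.0265) and highest in the library labelled shIft88 1 (0.208), and in each library it lies below the primary cilium median.

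Reads of silent genes bear on these low values. The mean level of Olfr rows was 0.000790, 0.00991 and 0.0140 CPM per kb in libraries labelled shIft88 1, 2 and 3 and 0.00114, 0.00680 and 0.000855 CPM per kb in control 1, 2 and 3. Members above that mean numbered 38, 37 and 35 of 38 in libraries labelled shIft88 1, 2 and 3 and 29, 37 and 35 in control 1, 2 and 3. Against the highest single Olfr row, a stricter bar, 23, 6 and 2 members stood above it in libraries labelled shIft88 1, 2 and 3 and 8, 11 and 9 in control 1, 2 and 3. That bar itself ran from 0.0991 CPM per kb in the library labelled shIft88 1 to 2.98 CPM per kb in the library labelled shIft88 3, so the counts compare members with each library's own background and not with each other. The radial spoke genes Rsph3a and Rsph3b passed it in all 6 libraries. Of the 68 primary cilium genes, 65, 62 and 39 passed it in libraries labelled shIft88 1, 2 and 3 and 63, 64 and 65 in control 1, 2 and 3. All 68 passed the filter on low counts, so a gene under the bar need not be silent. From here on, a member within the range of Olfr rows is read neither as expressed nor as silent.

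Among the regulators, Rfx3 was the abundant one. Rfx3, a winged-helix factor that in mice is needed for normal cilia and is also made in cells with primary cilia only, was at 15.99, 36.5 and 30.4 CPM in libraries labelled shIft88 1, 2 and 3, against 18.3, 34.7 and 24.6 CPM in control 1, 2 and 3. The highest values fell in a library of each group, and the groups overlapped (log2 fold change 0.093, standard error 0.38, given in this order in brackets below). Rfx2, its relative with a role in sperm and motile cilia, was at 1.70, 3.53 and 2.87 CPM in libraries labelled shIft88 1, 2 and 3, against 3.24, 4.88 and 2.15 CPM in controls (-0.34, 0.53). Foxj1 was at 2.89, 1.21 and 1.19 CPM in libraries labelled shIft88 1, 2 and 3, against 0.606, 2.05 and 1.51 CPM in controls. It was highest in the library labelled shIft88 1 and lowest in control 1, and again the groups overlapped (0.35, 0.66). Within the 3 libraries rich in reads of silent genes its log2 fold change was -0.78, and 1.40 within the other 3. None of these 3 passed the test. With library totals alone the value for Rfx3 was -0.24, which lay above the median of all genes, itself moved to -0.33.

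Of the outer arm heavy chains, the motors that set beat frequency, Dnahc8 had the highest mean CPM, and all 5 varied widely between libraries. Dnahc8, an outer arm motor best known from sperm, was at 4.92, 7.93 and 26.2 CPM in libraries labelled shIft88 1, 2 and 3, against 44.03, 1.11 and 16.7 CPM in control 1, 2 and 3. Control 1 and control 2 thus bounded all other libraries. Control 1 had the highest Dnahc8 and the lowest Foxj1, and 10 members at 0. For Dnahc8 the log2 fold change was -0.67 (standard error 1.13), and it was 3.93 when only the libraries labelled shIft88 2 and 3 and control 2 were compared and -2.65 among the other 3. Dnahc11, a further outer arm chain, was at 5.63, 1.81 and 0.874 CPM in libraries labelled shIft88 1, 2 and 3, against 0.0909, 1.72 and 4.60 CPM in control 1, 2 and 3 (0.38, 1.198). The libraries labelled shIft88 1 and control 3 were high. The same libraries had the highest sums of 28 mature neuron genes, with 666, 339 and 74.0 CPM in libraries labelled shIft88 1, 2 and 3 and 92.6, 371 and 1115 CPM in control 1, 2 and 3. On that list 24 of 28 genes were highest in control 3 and 1 in the library labelled shIft88 1. The microglia and germ cell lists also had their highest sums in the libraries labelled shIft88 1 and control 3. These sums were 365 and 350 CPM for microglia and 109 and 64.9 CPM for germ cell genes, so the pattern was not particular to neuron genes. The pairing with neurons was chosen after the values were seen, and the part of any of these cell types in the Dnahc11 level was not tested.

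The ciliary outer arm pair Dnahc5 and Dnahc9 stayed low. Dnahc5, whose loss in mice and humans stops ciliary beating, was at 0.651, 1.41 and 0.750 CPM in libraries labelled shIft88 1, 2 and 3, against 0.0606, 1.07 and 0.371 CPM in control 1, 2 and 3. Dnahc9, its partner in the distal axoneme, was at 1.24, 0.840 and 0.2499 CPM in libraries labelled shIft88 1, 2 and 3, against 0.0303, 0.845 and 0.198 CPM in control 1, 2 and 3. Both were lowest in control 1, where they had 2 and 1 counts, and neither stood above the highest Olfr row in any library. Dnahc17, a sperm outer arm chain, ran from 0.113 to 1.31 CPM and did not pass the filter.

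**Figure D3:**
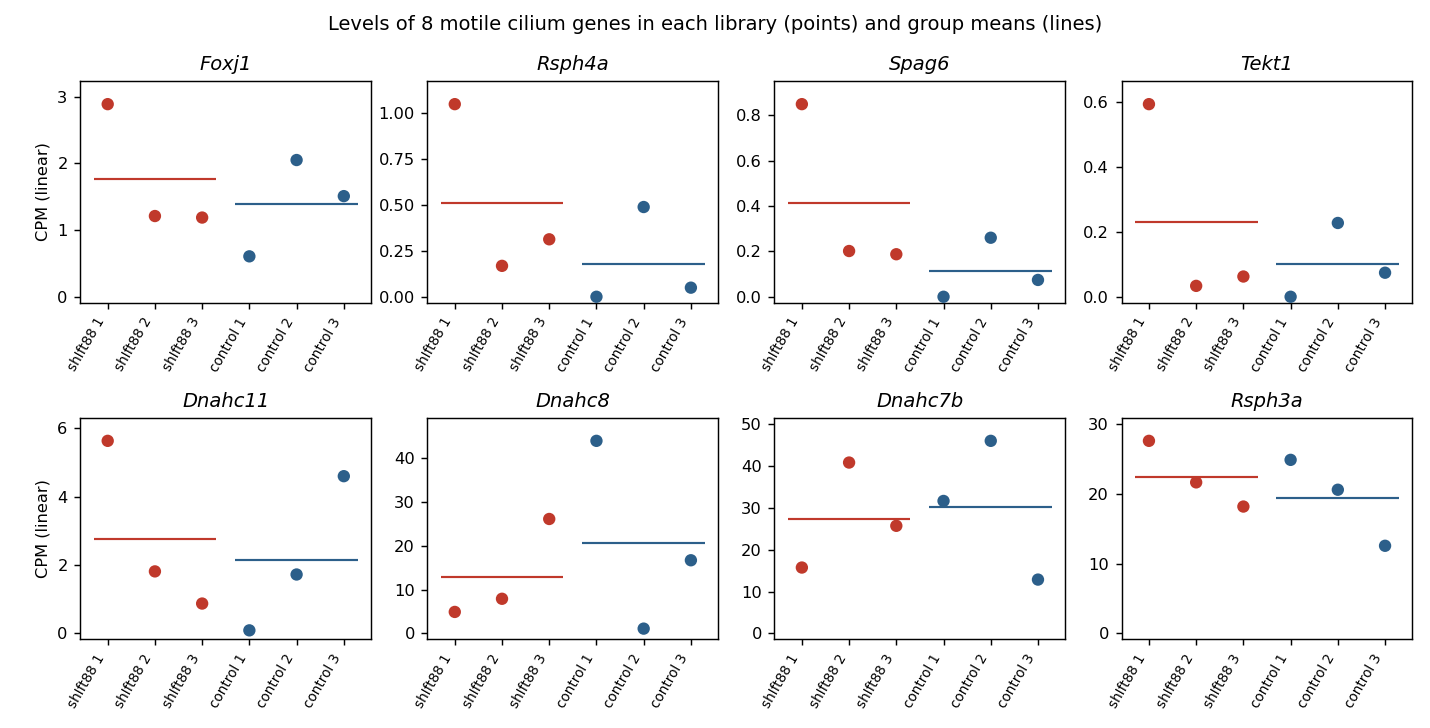
CPM (linear axis) of 8 members in each library, with lines at the group means, libraries labelled shIft88 in red on the left and controls in blue on the right. Foxj1, Rsph4a, Spag6, Tekt1 and Dnahc11 peak in the library labelled shIft88 1, while Dnahc8 peaks in control 1 at 44.03 CPM and Dnahc7b in control 2 at 46.0 CPM.

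The inner arm heavy chains, which shape the bend of the axoneme, held the member with the smallest p. Dnahc1 was at 6.99, 9.48 and 3.06 CPM in libraries labelled shIft88 1, 2 and 3, against 2.03, 1.98 and 2.77 CPM in control 1, 2 and 3. With TMM scaling each library labelled shIft88 lay above each control, by little in the case of the library labelled shIft88 3. That order rested on the TMM factor of 0.598 of this library. It had 49 counts of Dnahc1, against 67, 61 and 112 in control 1, 2 and 3. By library totals it lay below every control. Dnahc1 averaged 6.51 ± 3.23 CPM in libraries labelled shIft88 and 2.26 ± 0.441 CPM in controls (SD, n = 3 each), giving a log2 fold change of 1.53 (standard error 0.53). With edgeR's quasi-likelihood test its unadjusted p was 0.0225 and its adjusted p 0.9995, so it did not pass. Of 22 tested members 1 reached an unadjusted p of 0.05, where 3.23% of all 16768 genes tested did, 1.97% higher and 1.26% lower. Dnahc1 stood above every Olfr row in 1 library, the one labelled shIft88 1. The log2 fold change of Dnahc1 was 1.65 within the 3 libraries rich in reads of silent genes and 1.5003 within the other 3. An antisense gene, Gm35823, overlaps its exons in the later annotation. The strand setting of the counting is not stated, so reads of such opposite genes cannot be told apart from those of the member. The same holds for Dnahc8 (1700097N02Rik), Dnahc11 (Cdca7l), Dnaic1 (Enho) and Dnali1 (Gnl2), among others.

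Dnahc7b had the highest mean CPM of the members, but not the highest level per length. Its mean of 1.44 CPM per kb lay below Rsph3a (6.93), Rsph3b (5.07), Tppp3 (4.37), Rfx3 (2.42) and Rsph9 (1.62). Libraries labelled shIft88 1, 2 and 3 had Dnahc7b at 15.8, 40.9 and 25.7 CPM. Control 1, 2 and 3 had it at 31.7, 46.0 and 12.9 CPM. The groups overlapped (-0.14, 0.52). Its near-identical neighbours Dnahc7a and Dnahc7c stayed between 0.0247 and 0.394 CPM and between 0 and 0.0976 CPM, and the division of reads among the 3 copies is uncertain. Dnahc2 was at 0.707, 3.36 and 1.56 CPM in libraries labelled shIft88 1, 2 and 3, against 1.09, 6.02 and 0.692 CPM in control 1, 2 and 3, with the highest values in 1 library of each group. Dnahc6 was at 2.52, 1.08 and 0.874 CPM in libraries labelled shIft88 1, 2 and 3, against 0.0909, 1.43 and 1.29 CPM in controls, and control 1 was again the lowest. Dnahc10 was at 1.02, 0.840 and 1.124 CPM in libraries labelled shIft88 1, 2 and 3, against 0.151, 0.813 and 0.272 CPM in control 1, 2 and 3. The library labelled shIft88 2 and control 2 each had 25 counts, so the separation of the groups was narrow, and Dnahc10 stood above every Olfr row in no library. By library totals the library labelled shIft88 3, with 18 counts, lay below control 2. The Dnahc10 log2 fold change of 1.27 (standard error 0.71) was 2.19 without control 2 and 0.88 without control 1. Within the 3 libraries rich in reads of silent genes it was 0.25, against 2.20 within the other 3. Dnahc3, Dnahc12 and Dnahc14 ran from 0 to 0.706 CPM and did not pass the filter.

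Of the smaller dynein subunits, the intermediate chains Dnaic1 and Dnaic2 anchor the outer arm motors and Dnali1 is a light intermediate chain of the inner arm. Dnaic2 was at 1.05, 1.04 and 1.94 CPM in libraries labelled shIft88 1, 2 and 3, against 1.36, 1.11 and 0.222 CPM in control 1, 2 and 3 (0.57, 0.73). Dnaic1 was at 0.792, 0.638 and 0.187 CPM in libraries labelled shIft88 1, 2 and 3, against 0.0909, 0.488 and 0.371 CPM in controls (0.79, 0.79). Dnali1 stayed between 0.0625 and 0.325 CPM. The groups overlapped for all 3.

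The axonemal ruler, a coiled-coil pair that sets the repeat at which spokes and inner arms dock, was highest in control 2. Ccdc39 was at 3.65, 3.66 and 4.06 CPM in libraries labelled shIft88 1, 2 and 3, against 1.57, 10.1 and 2.40 CPM in control 1, 2 and 3. Its partner Ccdc40 was at 1.36, 1.24 and 0.437 CPM in libraries labelled shIft88 1, 2 and 3, against 0.485, 3.19 and 0.742 CPM in control 1, 2 and 3. Both were highest in control 2 and lower in control 1 and control 3. Their log2 fold changes of -0.31 and -0.52 rested on control 2 and were 0.92 and 0.73 without it. Exons of Ccdc39 overlap Ttc14 on the opposite strand in the later annotation.

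Of the radial spoke genes, Rsph3a, Rsph3b and Rsph9 had at least 30 counts in each library, and the other 3 had few. Rsph3a, a spoke protein of the stalk, was at 27.6, 21.6 and 18.2 CPM in libraries labelled shIft88 1, 2 and 3, against 24.9, 20.6 and 12.6 CPM in control 1, 2 and 3. Rsph3b, its near-identical copy, was at 21.3, 17.7 and 13.4 CPM in libraries labelled shIft88 1, 2 and 3, against 16.2, 15.5 and 10.6 CPM in controls. Reads of these 2 rows may be split or shared. Rsph9, a spoke head subunit, ran from 2.09 to 3.39 CPM in libraries labelled shIft88 and from 0.742 to 3.48 CPM in controls. By contrast the head subunit Rsph4a had 37, 5 and 5 counts in libraries labelled shIft88 1, 2 and 3, against 0, 15 and 2 counts in control 1, 2 and 3. Rsph1, of the same spoke head, was picked after its values were seen. It had 29, 3 and 5 counts in libraries labelled shIft88 1, 2 and 3, against 1, 10 and 2 in control 1, 2 and 3. The library labelled shIft88 1 held most counts of both and control 2 came next. Rsph6a, known from sperm, had at most 5 counts in any library.

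Counts of the central pair genes were also uneven between libraries. Spag6, an armadillo-repeat protein of the central pair, had 30, 6 and 3 counts in libraries labelled shIft88 1, 2 and 3, against 0, 8 and 3 in control 1, 2 and 3. Spag16, its binding partner, had 38, 8 and 7 counts in libraries labelled shIft88 1, 2 and 3, against 0, 22 and 8 in control 1, 2 and 3. Spag17, a scaffold of the same complex, had 9, 10 and 5 counts in libraries labelled shIft88 1, 2 and 3, against 2, 24 and 2 in control 1, 2 and 3. Spag6 and Spag16 peaked in the library labelled shIft88 1, the only library where they stood above every Olfr row. Spag17 had most counts in control 2 but stood above every Olfr row in no library. Hydin, the giant central pair protein whose loss gives hydrocephalus in mice, was at 0.340, 4.50 and 1.25 CPM in libraries labelled shIft88 1, 2 and 3, against 2.88, 0.683 and 0.173 CPM in control 1, 2 and 3. Hydin stood above every Olfr row in no library, and no pattern is read from the values of Hydin or Spag17.

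Tektins, filament proteins that brace the doublet microtubules, were low. Tekt1, of cilia and sperm tails, had 21, 1 and 1 counts in libraries labelled shIft88 1, 2 and 3, against 0, 7 and 3 in control 1, 2 and 3, and was highest in the library labelled shIft88 1. Tekt2 was at 0.736, 1.14 and 1.19 CPM in libraries labelled shIft88 1, 2 and 3, against 0.303, 0.650 and 0.371 CPM in control 1, 2 and 3. It averaged 1.02 ± 0.249 CPM in libraries labelled shIft88 and 0.441 ± 0.184 CPM in controls (SD, n = 3 each), giving a log2 fold change of 1.202 (standard error 0.56). With TMM scaling the groups did not overlap, but the gene did not pass (unadjusted p = 0.0659, adjusted p = 0.9995, edgeR). By library totals the library labelled shIft88 3, with 19 counts, lay just below control 2, with 20. Within the 3 libraries rich in reads of silent genes the log2 fold change of Tekt2 was 0.82, and 1.08 within the other 3. Tekt3, Tekt4 and Tekt5 had at most 6 counts in any library. Tppp3, a tubulin polymerization protein used as a label of multiciliated cells, was at 6.42, 12.4 and 4.68 CPM in libraries labelled shIft88 1, 2 and 3, against 6.57, 5.72 and 12.6 CPM in control 1, 2 and 3. Its peaks lay in the library labelled shIft88 2 and control 3, not where Foxj1 was highest. Lrrc6, a dynein assembly factor, had 4, 10 and 3 counts in libraries labelled shIft88 1, 2 and 3, against 0, 6 and 0 in controls.

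RFX factors bind the X-box, a pair of inverted arms, in front of cilium genes. Promoters of 5 members are therefore shown, 4 with a motif and 1 without. These members were highest in the library labelled shIft88 1 or, with TMM scaling, higher in every library labelled shIft88. They were chosen with these values known. RefSeq promoters (GRCm38.p6, 250 bases before to 50 after the gene start) were found for 33 members. The arm GTTGCC, on either strand, was in the promoters of 13 of them (39.4%), against 14.1% of 27025 genes. The forkhead core GTAAACA, on either strand, was in 2 of 33 (6.06%), Dnahc17 and Tekt3, against 4.05% of genes. A full X-box spelled GTTNCC and GGNAAC with 2 to 4 bases between them was in none of the 33 and in 0.640% of genes. A looser pair, GTTGC and GGCAAC with 2 or 3 bases between them, was chosen after the sequences were seen. It overlaps the arm and was in 4 of 33, Dnaic2, Hydin, Rsph3b and Tekt2, and in 0.337% of genes. Both spellings miss some paired arms, such as gttgctaagcaac in Dnahc6 and gttgcttagcaac in Dnahc7a and Dnahc7b. How many genes hold such pairs was not counted, so a member without a match may still hold an X-box. Capitals below mark the counted motifs, 5′ to 3′ along the gene, and Dnahc11 holds none. Tekt1 and Tekt2 have further listed starts, and 1 promoter of each is shown.
Spag16 (chr1:69826720-69827019, plus strand): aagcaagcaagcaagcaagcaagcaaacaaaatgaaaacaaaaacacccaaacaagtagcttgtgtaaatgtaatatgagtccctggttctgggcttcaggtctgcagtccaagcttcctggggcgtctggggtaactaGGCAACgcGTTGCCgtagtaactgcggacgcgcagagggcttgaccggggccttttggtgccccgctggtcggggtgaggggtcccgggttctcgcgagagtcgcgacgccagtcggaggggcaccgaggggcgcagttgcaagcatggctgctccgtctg
Spag6 (chr2:18698772-18699071, plus strand): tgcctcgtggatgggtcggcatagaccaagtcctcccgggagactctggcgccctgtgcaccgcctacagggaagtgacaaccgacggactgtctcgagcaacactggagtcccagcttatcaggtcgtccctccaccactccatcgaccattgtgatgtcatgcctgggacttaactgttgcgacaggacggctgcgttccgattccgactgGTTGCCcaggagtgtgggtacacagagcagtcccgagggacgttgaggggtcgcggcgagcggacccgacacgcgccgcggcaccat
Tekt1 (chr11:72361833-72362132, minus strand): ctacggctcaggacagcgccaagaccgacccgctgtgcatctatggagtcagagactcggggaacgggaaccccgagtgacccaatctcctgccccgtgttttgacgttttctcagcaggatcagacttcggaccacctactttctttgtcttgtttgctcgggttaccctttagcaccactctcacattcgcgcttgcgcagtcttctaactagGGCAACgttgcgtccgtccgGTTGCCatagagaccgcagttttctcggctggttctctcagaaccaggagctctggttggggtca
Tekt2 (chr4:126325639-126325938, minus strand): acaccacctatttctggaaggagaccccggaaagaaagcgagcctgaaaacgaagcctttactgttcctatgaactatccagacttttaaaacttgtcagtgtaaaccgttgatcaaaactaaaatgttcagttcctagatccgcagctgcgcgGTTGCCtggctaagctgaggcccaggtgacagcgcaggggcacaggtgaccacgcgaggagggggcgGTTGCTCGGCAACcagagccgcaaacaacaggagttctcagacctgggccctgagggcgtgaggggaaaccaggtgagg
Dnahc11 (chr12:118198994-118199293, minus strand): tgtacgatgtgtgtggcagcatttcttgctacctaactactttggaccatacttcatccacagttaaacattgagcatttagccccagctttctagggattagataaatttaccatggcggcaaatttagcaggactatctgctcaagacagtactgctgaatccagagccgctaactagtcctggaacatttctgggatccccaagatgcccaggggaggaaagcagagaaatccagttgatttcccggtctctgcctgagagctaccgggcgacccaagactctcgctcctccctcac
Spag16 and Tekt1 each hold the arm 2 times, once on each strand, and Spag6 holds it 1 time. Tekt2 holds it 2 times, of which 1 lies inside the looser pair. Among the 14 members highest in the library labelled shIft88 1, 11 had a promoter, 5 of them with the arm and 6 without, namely Dnahc6, Dnahc9, Dnahc11, Dnaic1, Rsph3a and Tekt5. Of the other 22 members with a promoter, 8 held the arm. The promoter of Dnahc10 also has 2 arms, and that of Dnahc1 holds none of the motifs. A match describes the letters and shows no binding.

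Between the groups, 0 of the 22 tested members passed at an adjusted p of 0.05 in either direction, and among all 16768 genes edgeR called 0% higher and 0% lower (smallest adjusted p 0.9995; 541 genes at an unadjusted p of 0.05). DESeq2, limma-voom and edgeR without a filter also called 0 members. Of the tested members 15 had a log2 fold change above 0 and 7 below, where 48.7% of all tested genes had one above 0. Their median was 0.34 above the median of all tested genes. With TMM scaling, groups did not overlap for 3 tested members, Dnahc1, Dnahc10 and Tekt2. All were higher in libraries labelled shIft88, where 4.7% of all genes were higher without overlap. These 3 separations rested on the TMM factor of 0.598 of the library labelled shIft88 3. By library totals that library lay below control 2 for each of them. Of the 18 members that did not pass the filter, Dnahc14 and Tekt5 were also higher without overlap, on at most 6 counts in any library. No member was lower without overlap, against 3.69% of all genes. The median of the members depended on which libraries were compared, with the filter applied anew so that 23 to 30 members entered. It was -0.23 within libraries labelled shIft88 2 and 3 and control 2, those rich in reads of silent genes, and 1.21 within the library labelled shIft88 1 and control 1 and 3. It was 0.75 without control 2, 0.59 without the library labelled shIft88 3 and 0.55 without the library labelled shIft88 2. With no filter, where all 40 members entered, it was 0.53, and with a filter of 1 CPM in 3 libraries, where 16 did, 0.15.

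**Figure D4:**
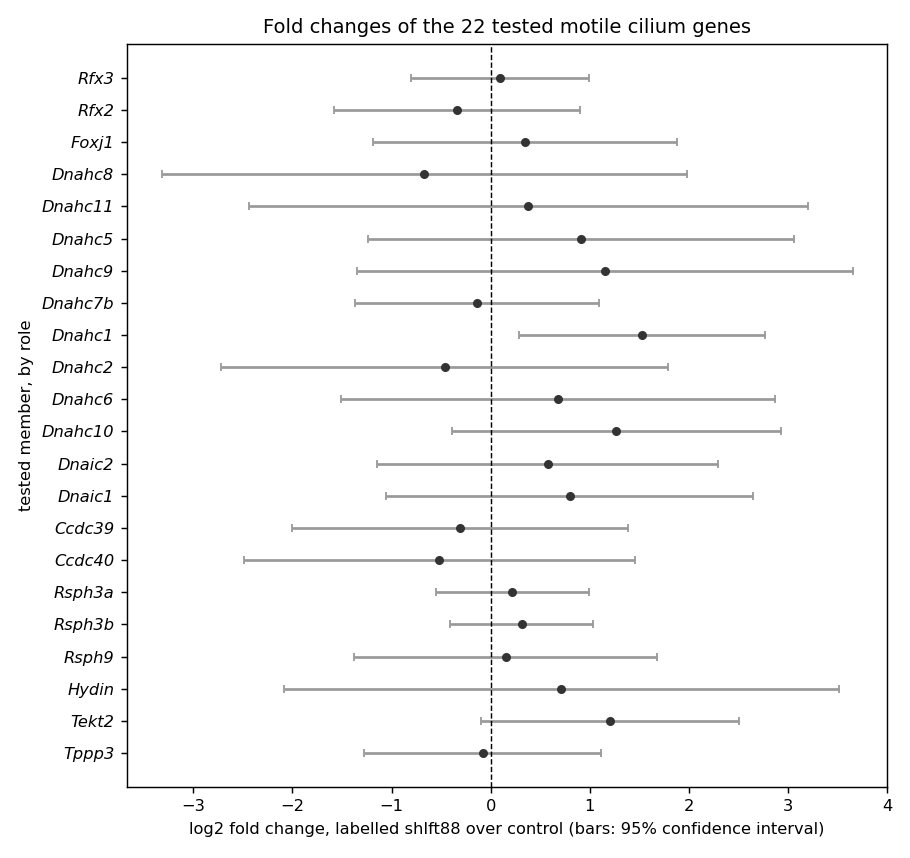
Log2 fold change of each of the 22 tested members, libraries labelled shIft88 over controls, with 95% confidence intervals from the edgeR fit. The intervals of 21 members hold 0, and that of Dnahc1 runs from 0.29 to 2.77, though its adjusted p is 0.9995.

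The members also differed between single libraries. Of 40 members, 14 were highest in the library labelled shIft88 1, 9 in the library labelled shIft88 2, 4 in the library labelled shIft88 3, 2 in control 1, 10 in control 2 and 1 in control 3. Of all 16768 tested genes, 2995, 2327 and 2734 were highest in libraries labelled shIft88 1, 2 and 3 and 2981, 1879 and 3852 in control 1, 2 and 3. All of these passed the filter, whereas the 40 members include 18 that did not, so the sets are unlike. Control 1 was lowest, ties at 0 included, for 20 of 40 members, 10 of them at 0 there. Control 3 was lowest or tied for 16, so control 1 did not stand alone at the low end. How many of all genes were lowest in control 1 was not counted, so whether 20 of 40 is unusual cannot be told. With library totals in place of TMM the counts were 15 for the library labelled shIft88 1 and 10 for control 2 at the high end. At the low end they were 20 for control 1 and 12 for control 3. Among the 24 members above every Olfr row in at least 1 library, 11 were highest in the library labelled shIft88 1 and 11 were lowest in control 1. Of these 24, 12 stood above every Olfr row only in the library labelled shIft88 1, where that bar was lowest, so these counts describe a selected set and are no check of the order of libraries.

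Several choroid plexus markers were highest in the library labelled shIft88 1, as were Foxj1 and 13 other members. The members together were not: their summed level was 132, 181 and 147 CPM in libraries labelled shIft88 1, 2 and 3, against 160, 170 and 109.8 CPM in control 1, 2 and 3. Ttr, the transthyretin that choroid plexus secretes, was at 1389, 0.739 and 0.125 CPM in libraries labelled shIft88 1, 2 and 3, against 0.121, 0.195 and 0.0494 CPM in control 1, 2 and 3. Kl, the klotho gene, was at 18.7, 0.202 and 0.625 CPM in libraries labelled shIft88 1, 2 and 3, against 0.0303, 0.455 and 0.222 CPM in controls. Of the 20 listed choroid plexus genes, 11 were highest in the library labelled shIft88 1. Of 16 tested, 13 were above 0 and 3 below, 0 passed and the median was 0.94 above all genes. Summed over the list, levels were 2782, 933 and 549 CPM in libraries labelled shIft88 1, 2 and 3 and 674, 944 and 256 CPM in control 1, 2 and 3. Chosen after their values were seen, Tmem72 was at 6.76 CPM, Kcne2 at 5.40 CPM and Cldn2 at 4.02 CPM in the library labelled shIft88 1, and each was at most 0.312 CPM in every other library. The homeobox factor Otx2, also on the list, was at 272, 309 and 260 CPM in libraries labelled shIft88 1, 2 and 3 and at 337, 427 and 31.3 CPM in control 1, 2 and 3, and so did not follow Ttr. Without the library labelled shIft88 1, 0 of the members passed either and the median of the members was 0.25. Of the list, 0, 0 and 1 genes were at 0 in libraries labelled shIft88 1, 2 and 3 and 3, 0 and 1 in control 1, 2 and 3. The part of choroid plexus tissue in the levels of Foxj1, Rsph1, Rsph4a, Spag6, Spag16 and Tekt1 was not tested. In bulk samples fewer cells of a type and less RNA per cell cannot be told apart.

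Markers of ependymal cells were mixed, and the members are not named after that cell type here. Tmem212, an ependymal marker, was picked after its values were seen. It was at 0.0283, 0 and 0 CPM in libraries labelled shIft88 1, 2 and 3, against 0, 0.390 and 0 CPM in control 1, 2 and 3. Chosen after their values were seen, Ccdc153, Fam183b and Sntn, further genes of multiciliated cells and among the lowest on the list, were at most 0.488 CPM in any library and highest in control 2. Of 21 listed markers found in the tables, 1, 3 and 3 were at 0 in libraries labelled shIft88 1, 2 and 3 and 7, 0 and 4 in control 1, 2 and 3. Their summed level of 643 to 673 CPM in libraries labelled shIft88 and 751 to 1025 CPM in controls came mostly from Vim. On the list, 8 genes averaged over 5 CPM, namely Vim, Cd24a, Aqp4, S100b, Tm4sf1, Tmem107, Rarres2 and Calml4, several of which other glia, progenitors or choroid plexus make as well. Of the rest, 1 averaged 1 to 5 CPM and 12 less than 1 CPM. Cd24a was at 102, 106 and 112 CPM in libraries labelled shIft88 1, 2 and 3, against 93.0, 102 and 81.1 CPM in control 1, 2 and 3. Aqp4, a water channel also made by astrocytes, was at 47.3, 64.8 and 1.62 CPM in libraries labelled shIft88 1, 2 and 3, against 0.151, 46.7 and 132 CPM in control 1, 2 and 3. Of the 13 tested markers 0 passed (8 above 0 and 5 below, median 0.033 above all genes). Mia1, the smallest p among them, was at 1.53, 0.605 and 1.56 CPM in libraries labelled shIft88 1, 2 and 3, against 0.182, 0.390 and 0.321 CPM in controls, and did not pass.

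**Figure D5:**
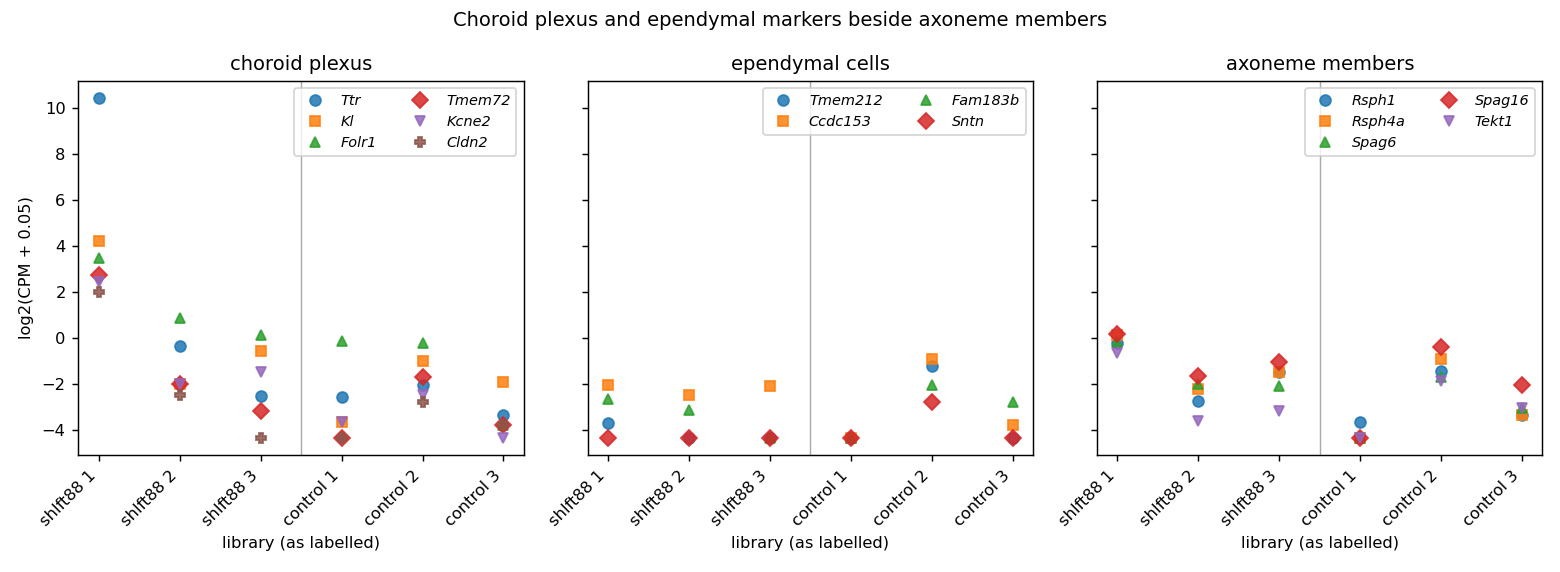
Levels as log2(CPM + 0.05) of 6 choroid plexus genes, 4 ependymal markers and 5 axoneme members in each library, libraries labelled shIft88 left of the grey line. These choroid plexus genes and axoneme members, picked for their values there, peak in the library labelled shIft88 1 (Ttr at 1389 CPM), while these 4 ependymal markers, among the lowest of 21, stay below 0.5 CPM.

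Other genes of the motile cilium came from a list of assembly factors, docking complex, nexin-dynein regulatory complex and further axonemal proteins. Of 68 genes found, 43 were tested, 0 passed in either direction, 31 were above 0 and 12 below, and their median was 0.29 above all genes. Gas8, a subunit of the regulatory complex also found in cells without motile cilia, was at 22.1, 21.8 and 28.8 CPM in libraries labelled shIft88 1, 2 and 3, against 21.4, 23.2 and 11.4 CPM in control 1, 2 and 3. Of the 68, 20 were highest in the library labelled shIft88 1, 12 were at 0 in control 1 and 18 were highest in control 2. Of 68 primary cilium genes 0 passed (38 above 0 and 30 below, median 0.067 above all genes), 2 were highest in the library labelled shIft88 1, and 0 were at 0 in control 1. Germ cell genes, listed because sperm tails share many axonemal proteins with cilia, were mostly low: 7 of 23 were at 0 in the library labelled shIft88 1 and 12 in control 1. Mov10l1, a piRNA helicase of germ cells with the smallest p on that list, was at 5.09, 1.55 and 2.87 CPM in libraries labelled shIft88 1, 2 and 3, against 0.0606, 0.0650 and 0 CPM in controls, and did not pass. No gene passed on the lists of other cell types either, and the tested genes above and below 0 numbered 3 and 24 for mature neurons, 7 and 7 for astrocytes, 1 and 11 for oligodendrocytes, 3 and 11 for microglia, 5 and 8 for endothelium, 6 and 8 for meningeal fibroblasts and mural cells, and 4 and 9 for WNT medulloblastoma markers.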

How the data were processed

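RNA was measured in 3 tumour libraries labelled sh2-Ift88 and 3 labelled control. Per the labels' protocols, libraries were prepared by a strand-marking total RNA kit. BWA and the build mm9 are named in the submitters' processing notes. How reads were counted, on which annotation and with which strand setting, is not stated. The authors deposited unnormalized whole-number counts per gene. Each table ends in 5 tallies that name no gene and were left out. Among them reads with no feature were 18.8% to 39.5%, ambiguous reads 0.876% to 4.37% and unaligned reads 2.93% to 10.2% of all tallied reads.

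The test was edgeR 4.0.16 under R 4.3.3 (filterByExpr, which left 16768 genes, TMM factors, robust glmQLFit, glmQLFTest, a 2-sided test, Benjamini-Hochberg adjustment over all tested genes at 0.05). CPM use TMM-scaled library sizes. Replicate numbers follow accession order and pair no samples. The fit was tested on simulated data. Gene lists (12) were matched by symbol or older symbol. The members and lists were chosen with earlier results of these data known. Named genes were the listed regulators and named members, up to 4 members per role by mean level, the 3 members of smallest p, and from each list up to 3 genes of highest level and 2 of smallest p; any other is marked as picked later. Names and lengths come from GENCODE vM21 and RefSeq (GRCm38), a later build than the files'. Coordinates are printed only for the promoters shown, on that later build. Alternatives were DESeq2 1.42.0, limma-voom (limma 3.58.1), other scalings and filters, leaving out each library, and a term for or a split by reads of silent genes (over 100 detected Olfr rows).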

Additional observations from a re-analysis of the deposited data

How the results depend on the processing

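Among 16 alternatives to the edgeR fit, those with more than 1 library in each group called no member. Over the 22 members of the main fit, the smallest adjusted p was 0.482 (Dnahc1, DESeq2). Over all genes the count of 0 became 58 with DESeq2 and 6 without a filter. The members' median was 0.75 without control 2, -0.23 within the 3 libraries rich in reads of silent genes and 1.21 within the other 3; leaving out single libraries gave 0.25 to 0.75. Of 40 members 20 were lowest in control 1 and 16 in control 3, ties at 0 included, with no count over all genes to set beside this. Of the 24 members above every Olfr row in some library, 11 were lowest in control 1 and 6 in control 3. Of those 24, 12 entered only through the library labelled shIft88 1, so this is no check. Log2 fold changes, none called, turned sign within the 3 libraries rich in reads of silent genes (Tppp3 0.57, Dnaic1 -0.19, Dnahc6 -0.56, Rfx3 -0.066, Foxj1 -0.78, Dnahc8 3.93, Dnahc11 -0.36, Dnahc9 -0.59, Rsph3a -0.060, Rsph3b -0.0032, Rsph9 -0.20); within the other 3 libraries (Ccdc39 0.83, Ccdc40 1.10, Hydin -2.17, Rfx3 -0.46); with a term for such reads (Hydin -0.0039, Rfx3 -0.24, Dnahc8 0.59, Rsph9 -0.043); with library totals alone (Rfx3 -0.24, Rsph3a -0.030, Rsph9 -0.11); with limma-voom (Ccdc39 0.19). With library totals the median of all genes moved to -0.33, and the 3 values under that scaling lie above it. Ranges without single libraries that cross 0 were Ccdc39 -0.73 to 0.92, Ccdc40 -0.93 to 0.73, Dnahc11 -0.70 to 1.62, Dnahc2 -1.20 to 1.06, Dnahc7b -0.54 to 0.29, Dnahc8 -1.71 to 0.53, Foxj1 -0.23 to 0.73, Hydin -0.67 to 2.25, Rfx3 -0.16 to 0.36, Rsph3a -0.020 to 0.44, Rsph9 -0.29 to 0.48, Tppp3 -0.58 to 0.34. The cause was not tested. Of 22 tested members, 6 kept their sign in every setting that gave a value. No paired analysis was possible because the labels carry no replicate numbers. Depth limits the 18 untested members, with at most 39 counts in any library.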
